A study of Mus musculus with 4 samples.

Results

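The transcription factors that set the order of T cell development were followed through the thymus in single-cell RNA-seq counts. The genes were Tcf7, Lef1, Tcf3, Tcf12, Id2, Id3, Bcl11b, Ikzf1, Ikzf2 and Ikzf3, chosen by symbol, and all 10 were present among the 21926 genes of the count tables. The tables hold 1 thymus library from a WT mouse, labelled Eif4g2 flox/flox with no Cre, and 1 from an Eif4g2 cKO mouse, labelled CD4-Cre; Eif4g2 flox/flox. Both mice were 5 weeks old and labelled female, both libraries were labelled batch1, and the cells were unsorted. The Cd4-Cre transgene acts from the double-positive (DP) stage onward, so double-negative (DN) cells of the cKO mouse are not expected to have lost the gene. Each genotype rests on 1 mouse, so nothing was tested: every interval given is a 95% interval for counting error only, and a difference between the libraries cannot be told apart from a difference between the 2 mice.

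These factors act in sequence and against each other. TCF-1, encoded by Tcf7, and its relative LEF-1 are HMG-box proteins that bind the same DNA motif, use beta-catenin as a coactivator and Groucho proteins as corepressors, and are needed to establish the T lineage and the DP pool. The E proteins E2A, encoded by Tcf3, and HEB, encoded by Tcf12, are basic helix-loop-helix factors that bind E boxes, drive antigen receptor rearrangement and hold DP cells before selection. Id2 and Id3 have the dimerisation domain but no DNA-binding region, so they take E proteins off DNA, and T cell receptor (TCR) signalling is known to induce Id3. Bcl11b is the zinc finger factor of T lineage commitment. Ikaros, Helios and Aiolos, encoded by Ikzf1, Ikzf2 and Ikzf3, form a zinc finger family that recruits the NuRD chromatin remodelling complex.

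The genes lie apart in the genome and differ widely in length. In the GRCm38 annotation (GENCODE M21), Tcf7 spans 30.6 kb at chr11:52252371-52283014, minus strand. Lef1 spans 114 kb at chr3:131110471-131224356, plus strand. Tcf3 spans 24.1 kb at chr10:80409514-80433647, minus strand. Tcf12 is the longest, with 269 kb at chr9:71842688-72111871, minus strand. Both Id genes are compact: Id2 takes 3.34 kb at chr12:25093799-25097140, minus strand, and Id3 takes 2.26 kb at chr4:136143497-136145755, plus strand. Bcl11b spans 93.2 kb at chr12:107910403-108003602, minus strand. Ikzf1 spans 87.9 kb at chr11:11685003-11772926, plus strand, Ikzf2 spans 156 kb at chr1:69531214-69687245, minus strand, and Ikzf3 spans 81.1 kb at chr11:98464902-98546031, minus strand. No overlapping annotated gene of any member was itself counted in the tables. For Tcf7 the tables use a later version of the gene model than the annotation, so its span is approximate.

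Cells were placed in stages by their counts (unique molecular identifiers, UMIs) of marker genes, none of which is a member. The 7 stages held 93.5% of WT and 91.5% of cKO cells. Besides antigen-presenting and erythroid cells, 269 WT and 344 cKO cells met no rule and were left out of the stages. The DN-like stage held 64 WT and 91 cKO cells, the cycling stage 987 and 1327, and the resting DP-like stage 3168 and 1784. DN-like cells were set before cycling cells, so dividing cells stayed in the DN-like stage, while the later stages had them set apart. Cells past the first TCR signal, with Cd69, Itm2a, Tox and Cd5 above the recombination genes, numbered 857 and 558. A strongly signalled stage, set by Pdcd1, Tnfrsf9, Nr4a3 and Cd200, held 99 and 59, the mature stage 378 and 122, and innate-like cells 72 and 26. Orders of levels are given over the 6 stages from DN-like to mature, and innate-like cells are described apart from them. Between resting DP-like and mature cells, genes left out of the rule followed the names: the MHC class I gene H2-K1 was at 68.1 CPM (UMIs of the gene over all UMIs of the stage, scaled to a total of 1000000) in WT resting DP-like and 1191 CPM in WT mature cells, and the immaturity marker Cd24a was at 158 and 23.6 CPM. In the cKO library H2-K1 was at 112 and 1189 CPM in the same stages, and Cd24a at 212 and 57.4 CPM. Cd24a had not fallen in TCR-signalled cells, at 179 CPM in WT and 244 in cKO. Strongly signalled cells had H2-K1 at 872 CPM in WT and 777 in cKO. That stage was set before the mature one and can hold mature cells. A CPM level is a share of the UMIs of a stage, and the stages differed in depth. Median UMIs per cell were 5446.5 in DN-like, 1437 in resting DP-like, 1768 in TCR-signalled and 3600 in mature WT cells. In cKO they were 6635, 1413, 1822 and 3290.5. A rise or fall in CPM between stages is therefore not the same as a change in UMIs per cell.

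The WT library held 18355050 UMIs over 6014 barcodes and the cKO library 18056277 over 4335, each barcode with at least 1000. The libraries differed in ways the genotype does not cover. Although both mice were labelled female, UMIs of the Y chromosome genes Uty, Kdm5d and Eif2s3y summed to 2542 in the WT and 1 in the cKO library. Summed hemoglobin genes ran from 170.1 to 270.3 CPM over 6 WT thymocyte stages and from 7.18 to 43.2 CPM over the cKO stages, with 0 of 4 at 0 in WT and 0 to 2 of 4 in cKO. The sum of 11 antigen-presenting genes ran from 175 to 381 CPM in WT, with 0 to 3 genes at 0, and from 212 to 349 in cKO, with 0 to 7 at 0. The 3 B cell genes summed to at most 69.5 CPM in WT and 74.1 in cKO, and 4 stromal genes to at most 82.2 and 37.2. The part of RNA from these other cells in the results was not tested. The mature markers S1pr1 and Ccr7 were at 178 and 358 CPM in WT mature cells and at 95.7 and 196 in cKO mature cells, and Tox at 2404 and 1406 CPM in WT and cKO TCR-signalled cells. Marker genes that set a stage thus differed between the libraries within it, and their part in the members' ratios was not tested. The targeted gene itself, Eif4g2, was at 255 CPM in WT and 496 in cKO resting DP-like cells. The counts are 3′ tags, which need not come from the deleted part, so this value does not check the deletion.

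Of the 6 stages, resting DP-like cells had the most Tcf7 and DN-like cells the least in both libraries, where in cKO its interval overlapped that of strongly signalled cells. In WT it was at 444 CPM in DN-like, 785 in cycling, 1540.1 in resting DP-like, 1258 in TCR-signalled, 689.8 in strongly signalled and 581 in mature cells. In cKO it was at 575 CPM in DN-like, 789 in cycling, 1450 in resting DP-like, 1239.7 in TCR-signalled, 582 in strongly signalled and 684 in mature cells. From DN-like to resting DP-like cells its share of UMIs rose 3.46-fold in WT and 2.52-fold in cKO, with log2 ratios of 1.79 (1.59 to 2.0) and 1.33 (1.2 to 1.47). From TCR-signalled to mature cells the level fell by more than the limit in both, with log2 ratios of -1.11 (-1.23 to -1.0) in WT and -0.86 (-1.04 to -0.67) in cKO. After every cell was thinned to 1000 UMIs, 75.2% of WT and 74.9% of cKO resting DP-like cells had a Tcf7 UMI. The share in WT erythroid cells, which should lack the gene, was 19.6% (9.82 to 33.1%), and that in WT antigen-presenting cells was 38.8%. Innate-like cells, outside the 6 stages, had Tcf7 at 263 CPM in WT and 294 in cKO, below the DN-like level. Shares in non-T cells were read as background, and the 22.2% of WT innate-like cells with a Tcf7 UMI lay within the erythroid interval. The antigen-presenting cells held thymocyte transcripts too, with Cd8b1 at 687.5 CPM and Rag1 at 119.9 CPM in WT. A share not above theirs thus does not show that a gene was absent.

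Lef1 followed another course and peaked after TCR signalling. In WT it was at 246 CPM in DN-like, 303 in cycling, 563 in resting DP-like, 1799 in TCR-signalled, 1067 in strongly signalled and 972 in mature cells. The cKO levels were 157 CPM in DN-like, 161 in cycling, 302 in resting DP-like, 1262 in TCR-signalled, 650.3 in strongly signalled and 466 in mature cells. TCR-signalled cells exceeded resting DP-like cells 3.19-fold in WT and 4.18-fold in cKO, the log2 ratios being 1.68 (1.6 to 1.75) and 2.06 (1.95 to 2.18). The order of the 6 stages was the same in both libraries, and only the neighbours cycling and DN-like in both, and strongly signalled and mature in WT, had overlapping intervals. Cells with a Lef1 UMI after thinning rose from 37.6% to 67.8% between the resting DP-like and TCR-signalled stages of the WT library, against 5.88% of erythroid and 22.4% of antigen-presenting cells. The WT DN-like share of 20.3% did not exceed the latter, a class that also held thymocyte transcripts.

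**Figure D1:**
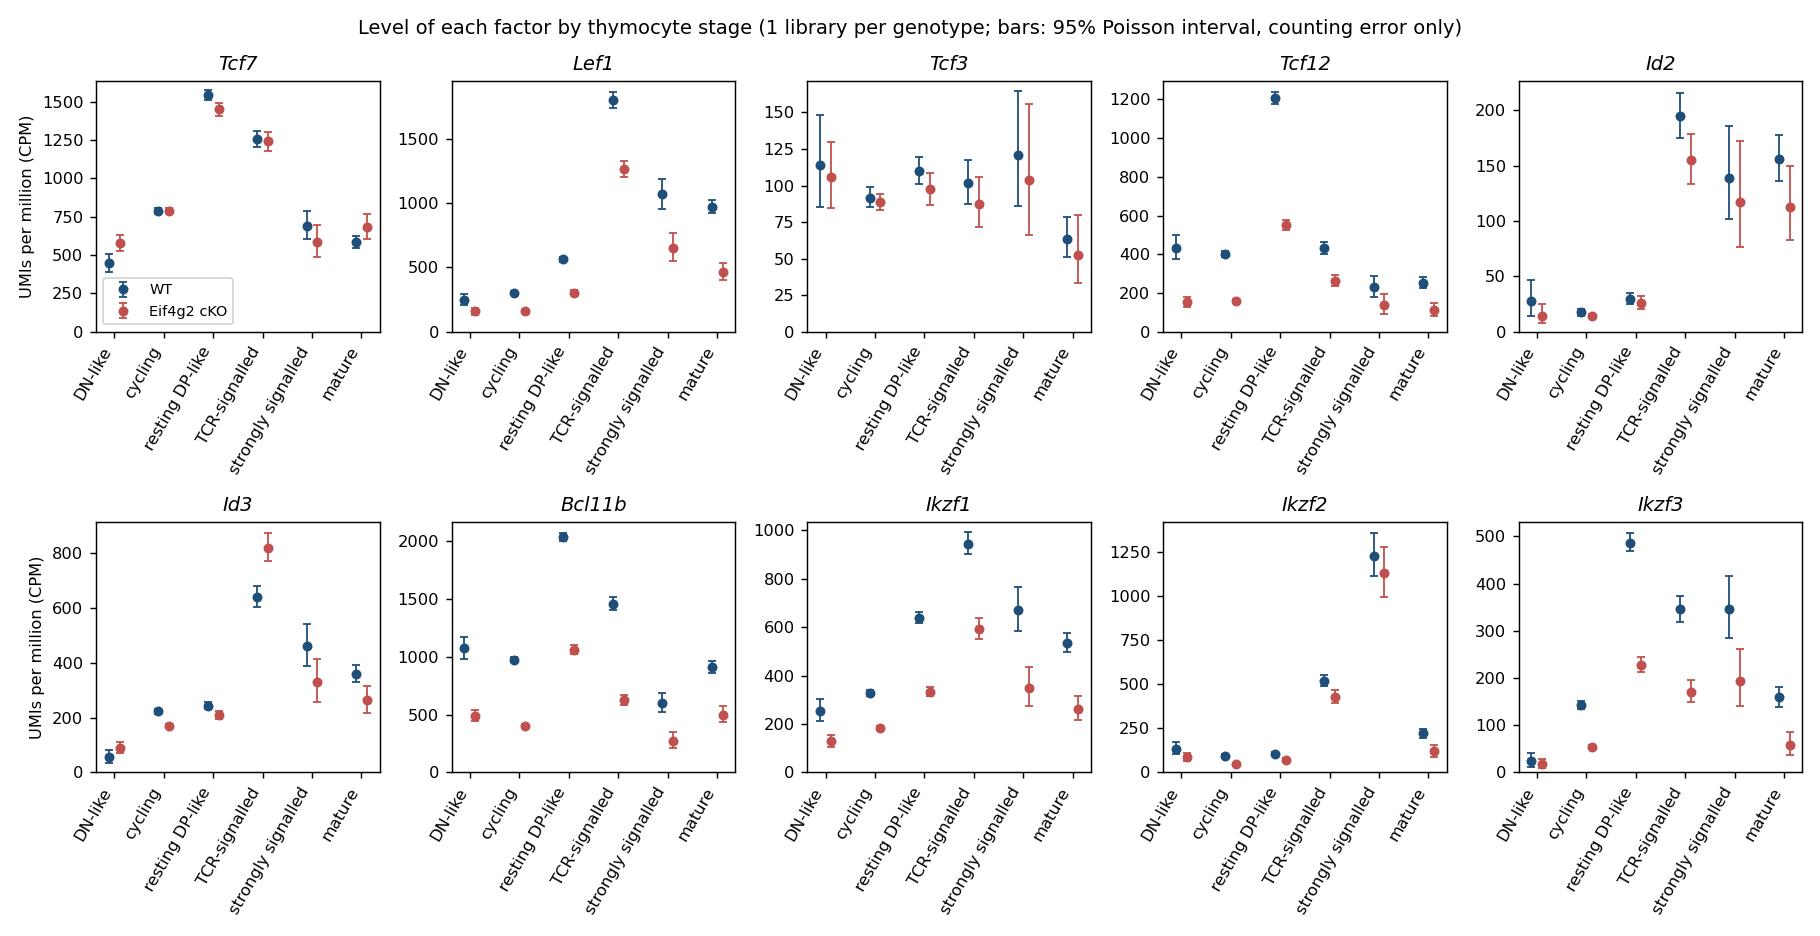
Level of each of the 10 factors in CPM (UMIs scaled to a stage total of 1000000, linear axis from 0, a scale of its own in each panel) by thymocyte stage in the WT (blue) and Eif4g2 cKO (red) library; points are sums over the cells of a stage in 1 library and bars the 95% Poisson interval. Tcf7, Tcf12, Bcl11b and Ikzf3 peak in resting DP-like cells, Lef1, Id2, Id3 and Ikzf1 in TCR-signalled cells and Ikzf2 in strongly signalled cells, in both libraries.

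The E protein genes differed from each other in their course. Tcf3 varied little: in WT it was at 114 CPM in DN-like, 91.8 in cycling, 110 in resting DP-like, 102 in TCR-signalled, 121 in strongly signalled and 63.8 in mature cells. In the cKO library the values were 106 CPM in DN-like, 88.5 in cycling, 97.4 in resting DP-like, 87.3 in TCR-signalled, 104 in strongly signalled and 52.6 in mature cells. Each of these intervals overlapped that of its neighbour in the order of levels, except that WT mature cells lay below WT cycling cells. In CPM, Tcf12 rose and fell sharply. In WT it was at 434 CPM in DN-like, 402 in cycling, 1207 in resting DP-like, 433 in TCR-signalled, 229 in strongly signalled and 254 in mature cells. In cKO it was at 152 CPM in DN-like, 159.7 in cycling, 551 in resting DP-like, 263 in TCR-signalled, 136 in strongly signalled and 112 in mature cells. The resting DP-like stage stood apart from every other stage in both libraries, and the log2 ratio of TCR-signalled to resting DP-like cells was -1.48 (-1.59 to -1.37) in WT and -1.07 (-1.24 to -0.90) in cKO. Cells with a Tcf12 UMI after thinning made up 62.7% of WT resting DP-like and 32.6% of WT TCR-signalled cells, and 39.8% and 23.3% in cKO. The shares in WT antigen-presenting and erythroid cells were 26.9% and 15.7%. Without thinning, 85.9% of WT DN-like and 75.5% of WT resting DP-like cells had a Tcf12 UMI, and 60.4% and 52.35% in cKO. The rise in CPM between these stages was thus not seen in the share of cells at full depth.

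The inhibitors rose where Tcf12 fell. Id3 was at 54.8 CPM in DN-like, 222 in cycling, 243 in resting DP-like, 641 in TCR-signalled, 461 in strongly signalled and 360.3 in mature cells of the WT library. The cKO levels were 88.8 CPM in DN-like, 171 in cycling, 209 in resting DP-like, 821 in TCR-signalled, 329.6 in strongly signalled and 263 in mature cells. Its log2 rise from resting DP-like to TCR-signalled cells was 1.4 (1.28 to 1.52) in WT and 1.97 (1.83 to 2.12) in cKO, and these intervals did not overlap. In CPM, Id3 was already 4.43-fold higher in resting DP-like than in DN-like WT cells, where 26 UMIs were counted. Id2 stayed low until TCR signalling. In WT it was at 27.4 CPM in DN-like, 17.4 in cycling, 29.7 in resting DP-like, 195 in TCR-signalled, 139 in strongly signalled and 156 in mature cells. In the cKO library the values were 14.4 CPM in DN-like, 14.1 in cycling, 26.2 in resting DP-like, 155 in TCR-signalled, 117 in strongly signalled and 112 in mature cells. The step from resting DP-like to TCR-signalled cells was 6.56-fold in WT and 5.93-fold in cKO, and neighbours in the order of levels among the 3 later stages overlapped. Innate-like cells had the most Id2, 814 (95% interval 721 to 915) CPM in WT and 453 (95% interval 348 to 579) in cKO, which was 5.22 and 4.03 times the mature level. In innate-like cells Id3 was at 216 CPM in WT and 237 in cKO. Thinned to equal depth, 51.4% of WT innate-like cells had an Id2 UMI against 2.27% of resting DP-like and 0 of 51 erythroid cells, which, taking 3 cells of the total as the limit of a count of 0, allows a share of up to 5.88%.

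Id2 and Id3 together took a larger part of the UMIs of the 4 helix-loop-helix genes after TCR signalling than before it. This share is of 3′ tags and is no molar ratio of proteins. In WT it was 13% (9.44 to 17.4%) in DN-like, 32.7% (31.5 to 34%) in cycling and 17.1% (16.3 to 18%) in resting DP-like cells, where the E protein genes led. It was 61% (59.1 to 62.9%) in TCR-signalled, 63.2% (57.5 to 68.6%) in strongly signalled, 61.9% (59.1 to 64.7%) in mature and 79.3% (75.3 to 83%) in innate-like WT cells. The cKO library went through the same turn at higher values, with 28.6% (23.5 to 34%) in DN-like, 42.7% (41.3 to 44.1%) in cycling, 26.6% (25 to 28.3%) in resting DP-like, 73.6% (71.4 to 75.7%) in TCR-signalled and 69.5% (63 to 75.4%) in mature cells. In strongly signalled and innate-like cells the intervals of the libraries overlapped, at 65.1% (57 to 72.7%) and 73.8% (65.4 to 81.2%) in cKO. Tcf12 was lower in the cKO library in each of these stages except the innate-like one, which was not compared. Summed Id2 and Id3 CPM were lower in cKO than in WT in cycling (185 and 240) and resting DP-like cells (235 and 273). The same held in strongly signalled (447 and 600), mature (376 and 516) and innate-like cells (690 and 1030). They were higher in DN-like (103 and 82.2) and TCR-signalled cells (976 and 836). A higher share is thus not in itself a higher Id level. The part of gene span in the share was not tested.

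**Figure D2:**
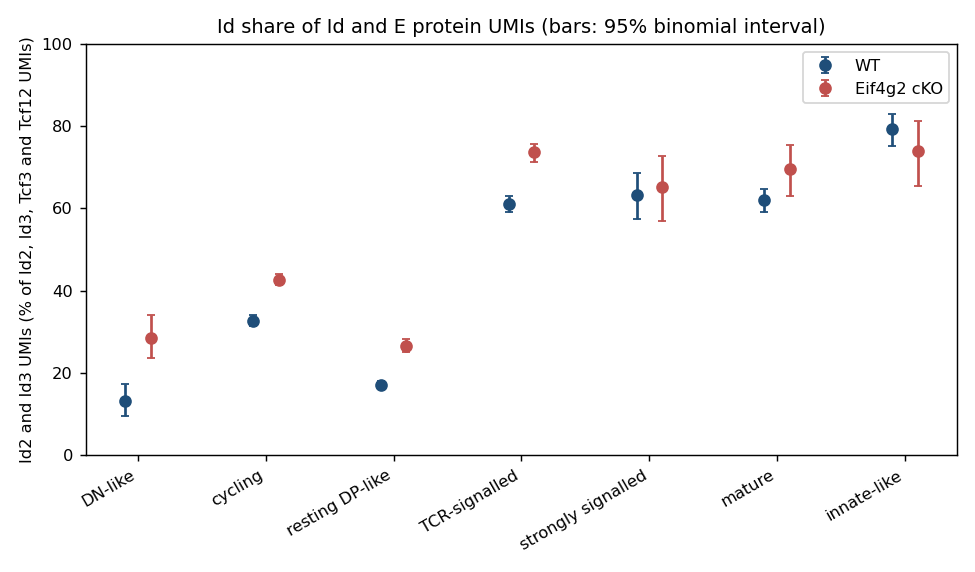
Share of Id2 and Id3 UMIs among all UMIs of Id2, Id3, Tcf3 and Tcf12 (percent, axis from 0 to 100) by stage in the WT (blue) and Eif4g2 cKO (red) library, with exact 95% binomial intervals for counting error. The share lies below 50% up to the resting DP-like stage and above it from the TCR-signalled stage on in both libraries.

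Bcl11b, which commits progenitors to the T lineage, was at 1072 CPM in DN-like, 975 in cycling, 2035 in resting DP-like, 1457 in TCR-signalled, 600.1 in strongly signalled and 911 in mature cells of the WT library. In cKO it was at 489.7 CPM in DN-like, 403 in cycling, 1062 in resting DP-like, 626 in TCR-signalled, 271 in strongly signalled and 498 in mature cells. Of the 6 stages, resting DP-like cells were highest and strongly signalled cells lowest in both. The log2 ratio of strongly signalled to TCR-signalled cells was -1.28 (-1.5 to -1.07) in WT and -1.21 (-1.61 to -0.83) in cKO. Innate-like cells had Bcl11b at 469.7 CPM in WT and 194 in cKO, with intervals that overlapped those of strongly signalled cells. The share of cells with a Bcl11b UMI after thinning was 78.7% of WT resting DP-like cells, beside 41.8% of WT antigen-presenting and 19.6% of WT erythroid cells.

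The Ikaros family split by stage. Ikzf1 was highest in TCR-signalled cells: in WT it was at 255 CPM in DN-like, 328 in cycling, 639 in resting DP-like, 946 in TCR-signalled, 671 in strongly signalled and 535 in mature cells. The cKO library had 128 CPM in DN-like, 185 in cycling, 334 in resting DP-like, 592 in TCR-signalled, 348 in strongly signalled and 263 in mature cells. Ikzf3, encoding Aiolos, was nearly absent before the DP stage, with 11 UMIs in WT and 14 in cKO DN-like cells. It was at 23.2 CPM in DN-like, 143 in cycling, 487 in resting DP-like, 346 in TCR-signalled, 346 in strongly signalled and 159 in mature cells of the WT library. The cKO library had 16.8 CPM in DN-like, 52.9 in cycling, 228 in resting DP-like, 171 in TCR-signalled, 194 in strongly signalled and 57.4 in mature cells. The rise from DN-like to resting DP-like cells, 21-fold in WT and 13.6-fold in cKO, had log2 ratios of 4.39 (3.55 to 5.4) and 3.76 (3.01 to 4.64). In cKO the resting DP-like and strongly signalled intervals of Ikzf3 overlapped.

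Ikzf2, encoding Helios, marked strongly signalled cells. In WT it was at 135 CPM in DN-like, 95.4 in cycling, 107 in resting DP-like, 522 in TCR-signalled, 1231 in strongly signalled and 221 in mature cells. In cKO it was at 85.2 CPM in DN-like, 45.3 in cycling, 72.8 in resting DP-like, 431 in TCR-signalled, 1134 in strongly signalled and 119.6 in mature cells. From TCR-signalled to strongly signalled cells it rose by 1.24 (1.07 to 1.41) on the log2 scale in WT and 1.4 (1.17 to 1.61) in cKO. After thinning, 59.6% of WT and 49.1% of cKO strongly signalled cells had an Ikzf2 UMI, against 7.2% and 4.99% of resting DP-like cells. The share in WT antigen-presenting cells was 10.4%, and the resting DP-like share was not above it. This does not show that the gene was absent there. Innate-like cells had Ikzf2 at 414 CPM in WT and 661 in cKO. The 33 WT cells picked by Foxp3, the gene of regulatory T cells, had Ikzf2 at 828 (696 to 978) CPM. The 11 such cKO cells had it at 193 CPM, from 9 UMIs. Foxp3 was at 21.5 CPM in WT and 2.39 in cKO mature cells, and its cells' part in the mature Ikzf2 values was not tested.

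Between stages, a gene was counted as higher or lower when its log2 ratio of CPM passed 0.5 and it had at least 50 UMIs over both stages. From DN-like to resting DP-like cells 7 of the 10 members were higher and 0 lower in WT, and 8 and 0 in cKO. Of all genes tested 50.8% were higher and 15.7% lower in WT, and 57.4% and 13.3% in cKO, so a rise is common in this comparison. The member that differed was Id2, whose cKO ratio of 0.86 (-0.02 to 1.87) rests on 12 DN-like UMIs and has an interval that includes 0. From resting DP-like to TCR-signalled cells 5 members were higher in each library, Lef1, Id2, Id3, Ikzf1 and Ikzf2, against 11.2% of all genes in WT and 7.54% in cKO. Lower were 1 member in WT, Tcf12, and 2 in cKO, Tcf12 and Bcl11b, against 23.2% and 23.5% of all genes. In WT, Bcl11b and Ikzf3 lay just within the limit, at -0.48 (-0.54 to -0.42) and -0.49 (-0.62 to -0.37), and in cKO they had -0.76 (-0.88 to -0.65) and -0.42 (-0.65 to -0.20).

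From TCR-signalled to mature cells 9 members were lower in CPM in WT and 8 in cKO. Lower among all genes were 39.8% in WT and 38.6% in cKO. No member was higher in either, against 7.45% and 6.03% of all genes. Id2 passed the limit in neither library, with ratios of -0.32 (-0.57 to -0.076) in WT and -0.46 (-0.96 to 0.0035) in cKO. Bcl11b passed it in WT, with -0.68 (-0.77 to -0.58), and not in cKO, with -0.33 (-0.56 to -0.11), a difference that was not tested. The largest falls in cKO were those of Ikzf2, -1.85, and Id3, -1.64, against -1.24 and -0.83 in WT. With a limit of 1 on the log2 scale 3 of the WT members stayed lower. Mature cells were deeper, with a median of 3600 UMIs against 1768 in WT and 3290.5 against 1822 in cKO. A lower CPM in mature cells thus need not be fewer UMIs per cell.

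Between the genotypes, Lef1, Tcf12, Bcl11b, Ikzf1 and Ikzf3 were lower in the cKO library in every stage in which they had 50 UMIs. Tcf7 and Tcf3 passed the limit in no stage. In resting DP-like cells 6 of 10 members were lower and 0 higher, beside 30.8% of all genes lower and 7.6% higher. The members' median log2 ratio there was -0.73, and that of all genes -0.20. In cycling cells 6 members were lower and 0 higher, beside 35.3% and 3.22% of all genes, with medians of -0.87 and -0.27. In TCR-signalled cells 5 were lower and 0 higher, beside 33.4% and 8.15%, with medians of -0.42 and -0.23. In strongly signalled cells 5 were lower and 0 higher, beside 29.5% and 12.7%, with medians of -0.60 and -0.12. In mature cells 6 were lower and 0 higher, beside 33.8% and 11.2%, with medians of -0.88 and -0.18. In DN-like cells, before Cd4-Cre acts, 5 of 8 were lower and 1 higher, beside 28.8% and 10.5%, with medians of -0.66 and -0.13. The DN-like stage kept its dividing cells, and the cycling marker Mki67 was at 19 CPM there in WT and 86.4 in cKO. The part of dividing cells in the DN-like ratios was not tested. The cells of this stage were few, and when stages were set on cells thinned to 1000 UMIs only 23 WT and 18 cKO cells were left in it. The DN-like count of lower members was 3 with those stages and 3 with equal weight for each cell, and Lef1 there turned to 0.016 with a narrower cell filter, 0.39 with stages on thinned cells and 0.42 against genes of like genomic span. Set against such genes, the DN-like median turned to 0.25, with 1 member lower and 2 higher, and the TCR-signalled median to 0.075, with 1 lower and 1 higher.

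**Figure D3:**
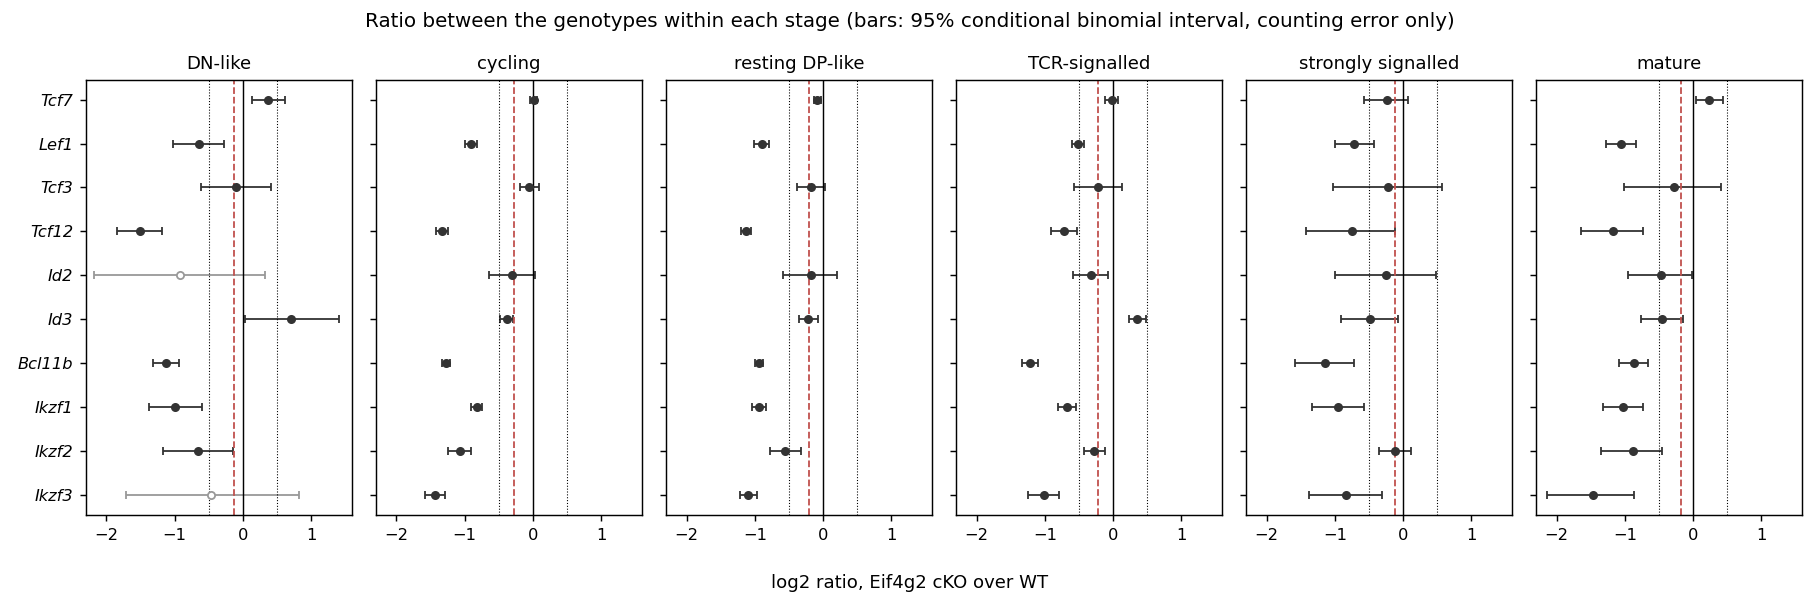
Log2 ratio of Eif4g2 cKO to WT of each factor (rows) within each stage (panels), with exact 95% intervals for counting error; open grey points had under 50 UMIs, dotted lines mark 0.5 and -0.5, and the red dashed line is the median of all genes tested. Lef1, Tcf12, Bcl11b, Ikzf1 and Ikzf3 lie below 0 in all 6 panels, while Tcf7 and Tcf3 stay within the dotted lines.

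Bcl11b was lower in all 6 stages. Its log2 ratio was -1.13 (-1.32 to -0.94) in DN-like, -1.27 (-1.33 to -1.22) in cycling and -0.94 (-0.99 to -0.88) in resting DP-like cells. After TCR signalling it was -1.22 (-1.34 to -1.1), in strongly signalled cells -1.15 (-1.59 to -0.72) and in mature cells -0.87 (-1.09 to -0.66). The WT level was between 1.83 and 2.42 times the cKO level. Tcf12 had ratios of -1.51 (-1.84 to -1.18) in DN-like cells, -1.33 (-1.42 to -1.25) in cycling cells and -1.13 (-1.21 to -1.05) in resting DP-like cells. In later stages its ratio was -0.72 (-0.91 to -0.53) after TCR signalling, -0.76 (-1.42 to -0.13) in strongly signalled and -1.17 (-1.64 to -0.73) in mature cells. Its E protein partner Tcf3 had ratios of -0.18 (-0.38 to 0.026) in resting DP-like and -0.052 (-0.19 to 0.088) in cycling cells, with intervals that include 0.

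Lef1 and Tcf7 went apart. In TCR-signalled cells, where Lef1 peaked, its ratio was -0.51 (-0.60 to -0.42), and Tcf7 had -0.021 (-0.12 to 0.074). In mature cells the WT level of Lef1 was 2.08 times the cKO level, a ratio of -1.06 (-1.28 to -0.84), while Tcf7 had 0.23 (0.036 to 0.43), slightly higher in cKO. Ikzf1 had ratios of -0.94 (-1.04 to -0.84) in resting DP-like, -0.67 (-0.80 to -0.55) in TCR-signalled and -1.02 (-1.32 to -0.73) in mature cells. Ikzf3 had the lowest ratios of the family in 4 stages, with -1.44 (-1.58 to -1.29) in cycling, -1.09 (-1.21 to -0.97) in resting DP-like, -1.02 (-1.25 to -0.79) in TCR-signalled and -1.47 (-2.15 to -0.86) in mature cells, the last resting on 24 cKO UMIs. Ikzf2 did not pass the limit in the stages where it was abundant: its ratio was -0.12 (-0.35 to 0.11) in strongly signalled and -0.28 (-0.43 to -0.12) in TCR-signalled cells, but -1.07 (-1.24 to -0.91) in cycling cells.

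The Id genes passed the limit in 1 stage, Id3 in DN-like cells. Id3 was the only member above 0 in TCR-signalled cells, with 0.36 (0.23 to 0.48). Its ratio was below 0 on both sides of that stage, -0.21 (-0.35 to -0.079) in resting DP-like and -0.45 (-0.76 to -0.15) in mature cells. In DN-like cells Id3 had 0.70 (0.035 to 1.4) with 26 WT and 74 cKO UMIs, which turned to -0.25 when stages were set on thinned cells. Id2 had -0.33 (-0.59 to -0.071) in TCR-signalled and -0.47 (-0.96 to -0.013) in mature cells. Its DN-like counts, 13 and 12 UMIs, were too few to be read.

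The 6 members that were lower in resting DP-like cells were the 6 whose genes span more than 50 kb, a limit chosen after the values were seen. The 4 shorter genes, Tcf7, Tcf3, Id2 and Id3, had ratios from -0.21 to -0.087. Ratios across the whole table also went down with span: of all tested genes over 50 kb 62% were lower in resting DP-like cells, and of shorter genes 18.8%. Their medians were -0.65 and -0.057, beside -0.94 for the 6 long members and -0.18 for the 4 short ones. In DN-like cells 67% of long and 17.9% of shorter genes were lower, and in mature cells 63.8% and 21.3%. When each ratio was set against the median of genes of like span, 1 member remained lower in resting DP-like cells, Ikzf3 at -0.56, with Bcl11b at -0.41 and Tcf12 at -0.34. On that scale Bcl11b was past -0.5 in 4 of 6 stages and Ikzf3 in 3. The compact Id genes then passed it too, Id2 at -0.58 and Id3 at -0.56 in mature cells and Id3 at -0.64 in strongly signalled cells. In mature cells Ikzf3 was thus the 1 of the 6 lower members that still passed. Lef1 then ran from -0.16 to 0.42, and Ikzf2 passed 0.5 upward in TCR-signalled and strongly signalled cells, at 0.57 and 0.95. The part of gene span in the members' ratios was not tested.

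**Figure D4:**
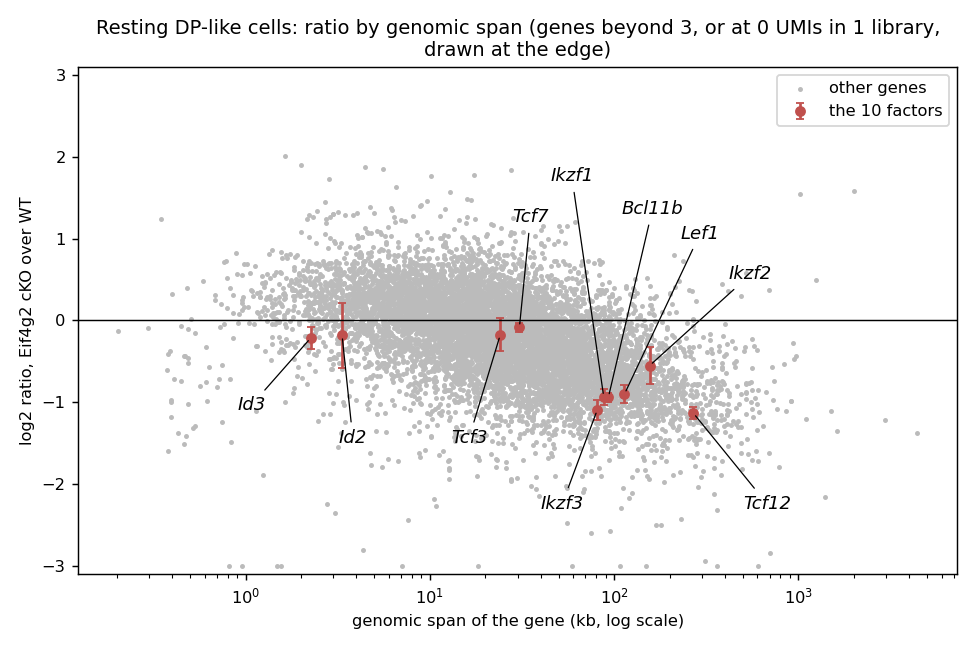
Log2 ratio of Eif4g2 cKO to WT in resting DP-like cells against genomic span (kb, log axis) for all genes with 50 or more UMIs (grey) and the 10 factors (red, with 95% intervals for counting error). The 4 factors under 50 kb lie between -0.21 and -0.087 and the 6 longer ones between -1.13 and -0.55.

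The partners of these factors were read from fixed lists. The beta-catenin and Groucho partners of TCF factors were 9 genes under 10 symbols, Aes being an older symbol of Tle5, and all were in the tables. In resting DP-like cells all 9 had 50 UMIs, with 0 higher and 4 lower. These were Tle2, a Groucho corepressor, at -1.01 (-1.5 to -0.54), Tle4 at -0.85 (-1.29 to -0.43), and the beta-catenin adaptors Bcl9l and Bcl9 at -0.62 (-1.12 to -0.14) and -0.62 (-1.06 to -0.19), and the list's median was 0.043. Of the E protein partners 4 of 9 had enough UMIs, and 3 were lower: Cbfa2t3, a corepressor of the ETO family, at -1.04 (-1.27 to -0.83), its relative Cbfa2t2 at -0.66 (-1.0 to -0.33), and the third E protein gene, Tcf4, at -0.57 (-0.81 to -0.32). All 13 NuRD genes were tested, with 1 higher and 3 lower. Lower were the remodelling ATPase Chd3 at -0.96 (-1.22 to -0.70) and the scaffold subunits Gatad2a at -0.76 (-1.01 to -0.51) and Gatad2b at -0.56 (-0.76 to -0.37). The histone-binding subunit Rbbp7 was higher at 0.73 (0.45 to 1.02). Of the other family members 3 of 5 had 50 UMIs and 2 were lower, the TCF gene Tcf7l2 at -0.95 (-1.55 to -0.39) and Ikzf4, encoding Eos, at -1.27 (-2.23 to -0.41). These shares stand beside the background of 30.8% given for this stage. That background is over genes of every span, with 62% lower among genes over 50 kb and 18.8% among shorter ones. The partners were not set against genes of like span.

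In TCR-signalled cells Chd3 had the largest difference among NuRD genes, -1.82 (-2.06 to -1.59), with 515.7 CPM in WT and 146 in cKO. There 4 of 13 were lower and 1, Mta2, was higher at 0.70 (0.42 to 0.99), and the list's median was 0.041. Of the TCF partners 3 of 7 were lower and 0 higher, and of the E protein partners 3 of 4 were lower and 0 higher, beside 33.4% of all genes lower and 8.15% higher. In mature cells Chd3 was again lower at -1.39 (-1.67 to -1.11), with 3 of 12 NuRD genes lower and 2 higher, beside 33.8% and 11.2% of all genes.

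For each member the genes with the most similar course over the 12 points of 6 stages in 2 libraries were found by Pearson's r of log2(CPM + 10). The points share libraries, so r is a description. Tcf7 was closest to Stx6 (r = 0.97) and Atp6v1g1 (r = 0.96), and Lef1 to Rgs10 (r = 0.97) and St6gal1 (r = 0.97). Tcf3 was closest to Ogfod2 (r = 0.92) and Smn1 (r = 0.91), and Tcf12 to Helz (r = 0.98) and Stxbp4 (r = 0.97). Id2 was closest to Tmsb10 (r = 0.98) and Cd40lg (r = 0.97), the second of which encodes CD40 ligand, and Id3 to Cd6 (r = 0.96) and Cd28 (r = 0.95), both encoding T cell surface receptors. Bcl11b was closest to Rreb1 (r = 0.97) and Dnajc13 (r = 0.97). Ikzf1 was closest to Osbpl9 (r = 0.97) and Tram1 (r = 0.97), Ikzf2 to Mapre2 (r = 0.98) and Nfkbid (r = 0.96), and Ikzf3 to Snx27 (r = 0.98) and Mus81 (r = 0.97). Among the members themselves the closest pairs were Lef1 with Ikzf1 (r = 0.92), Lef1 with Id2 (r = 0.92) and Tcf12 with Bcl11b (r = 0.92).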

How the data were processed

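Cells of unsorted thymus were captured in droplets and sequenced from the 3′ end (DNBelab C4 chemistry, DNBSEQ-T7). The authors aligned reads to mm10 and deposited raw UMI counts per gene and cell, made with dnbc4tools, version 2.1.3 by the series' design text and 3.0 by the file header. Whether reads in introns were counted is not given in the sources used here. Of 4 samples, 2 hold only oligonucleotide barcodes and gave no values. The libraries share 1055 cell names, which are running numbers. Cells with at least 50 genes and at most 10% mitochondrial UMIs were kept. Doublets were not removed.

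Cells were given stages in a fixed order by UMIs of marker genes (for example, TCR-signalled: at least 2 UMIs of Cd69, Itm2a, Tox and Cd5, and more than of the resting DP-like markers). The limits were set after marker distributions had been viewed, the members and lists were chosen with earlier results of these data known, and the 50 kb division was chosen after values were seen. UMIs were summed per stage and library and divided by the stage total (CPM). Intervals are 95% exact Poisson, binomial or conditional binomial intervals (SciPy 1.17.1, NumPy 2.4.6, pandas 2.3.3, Python 3.11.15). They cover counting error only, and ratios with under 50 UMIs over both sides were not called. Shares of cells used cells thinned to 1000 UMIs. Scripts were tested on simulated data. All members were reported, with at most 4 genes per partner list beyond 0.5 on the log2 scale and the 2 most similar genes with at least 200 UMIs. Of the 21926 identifiers 21816 were found in GENCODE M21, 97.5% of all in the same version. Another 10 settings were planned, and stages set on thinned cells were added after seeing the data.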

Additional observations from a re-analysis of the deposited data

How the results depend on the processing

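No paired analysis was possible because each genotype has 1 library, so no replicate could be left out either. Of the counts of members higher or lower under another setting 185 were within 1.5 times the reported count and 41 were not, and 606 single ratios moved by less than their counting interval, 209 moved by more, and 13 that had passed the limit changed sign. The cause was not tested beyond what each setting changes by its construction. Centring on genes of like span changed most. The median member ratio then was 0.25 in DN-like, -0.29 in cycling, -0.36 in resting DP-like, 0.075 in TCR-signalled, -0.19 in strongly signalled and -0.29 in mature cells. Members lower then were 1 in DN-like, 2 in cycling, 1 in resting DP-like, 1 in TCR-signalled, 2 in strongly signalled and 3 in mature cells, and higher were 2, 0, 0, 1, 1 and 0. Of ratios that had been past the limit, those that turned positive there were those of Lef1 in DN-like (0.42), cycling (0.025), TCR-signalled (0.33) and strongly signalled cells (0.35), of Tcf12 in TCR-signalled (0.13) and strongly signalled cells (0.31), and of Ikzf2 in DN-like (0.41), resting DP-like (0.24) and mature cells (0.015). Centred on all genes, the medians were -0.60 in cycling, -0.52 in resting DP-like and -0.19 in TCR-signalled cells, the last with 1 member higher and 2 lower. With cycling cells not set apart, the medians were -1.02 in resting DP-like and -0.62 in TCR-signalled cells, members lower in resting DP-like against DN-like cells were 2 in WT and 1 in cKO, with 5 higher in cKO, and members lower in TCR-signalled against resting DP-like cKO cells were 0. With cells limited to 1000 to 10000 UMIs and 3% mitochondrial content, the cycling median was -1.01, 0 members were higher in cKO DN-like cells, Lef1 turned to 0.016 there, and resting DP-like against DN-like cells had 2 members lower in WT and 1 in cKO. With totals that leave out mitochondrial and ribosomal protein genes, the cycling median was -0.76, 2 members were higher in cKO DN-like cells, and 1 was lower in resting DP-like against DN-like cells of each library. With equal weight for each cell, 3 members were lower in cKO DN-like cells, and 2 in WT and 1 in cKO in resting DP-like against DN-like cells. Stricter marker limits left 3 members lower in strongly signalled cells and 2 in WT TCR-signalled against resting DP-like cells. A minimum of 200 UMIs left 0 higher in DN-like and 3 lower in strongly signalled cells. A limit of 1 left 0 higher and 2 lower in DN-like, 2 lower in resting DP-like, 2 in TCR-signalled and 1 in strongly signalled cells, 1 lower in cKO TCR-signalled against resting DP-like cells, and 3 lower in WT mature against TCR-signalled cells. With stages set on thinned cells, 0 members were higher and 3 lower in DN-like cells, Lef1 there turned to 0.39 and Id3 to -0.25, resting DP-like against DN-like cells had 2 members lower in WT and 1 in cKO, with Lef1 at -0.15 in cKO, 2 were lower in WT TCR-signalled against resting DP-like cells, and 1 was higher in cKO mature against TCR-signalled cells. Depth limits Id2 and Ikzf3 in DN-like cells, with 11 to 14 UMIs each per library.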

Other observations

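Within TCR-signalled cells the members differed by coreceptor. Cells with UMIs of Cd4 and none of Cd8a or Cd8b1 numbered 108 in WT and 50 in cKO, and cells with the reverse 315 and 174. Id2 was at 425 CPM in the Cd4 cells and 143 in the Cd8 cells of WT, a log2 ratio of 1.58 (1.16 to 2.0), and at 391 and 77.7 CPM in cKO, a ratio of 2.33 (1.62 to 3.07). Ikzf2 was the other way round, at 143 CPM in the Cd4 and 692 in the Cd8 cells of WT (log2 ratio -2.28, interval -2.80 to -1.79) and at 324 and 570 CPM in cKO (-0.81, interval -1.35 to -0.31). Ikzf3 was also lower in the Cd4 cells, with 135 and 348 CPM in WT and 41.6 and 176 in cKO, the first of the cKO values resting on 5 UMIs. The lineage genes Zbtb7b, which encodes ThPOK of the CD4 lineage, and Runx3, of the CD8 lineage, were at 128 and 46.4 CPM in WT Cd4 cells and at 17.6 and 99.4 in WT Cd8 cells, while cKO cells had at most 3 UMIs of either gene in each class. A cell with UMIs of 1 coreceptor at a median of 1689 to 2178 UMIs per cell can also express the other.

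In mature cells the Cd4 class held 68 WT and 16 cKO cells and the Cd8 class 147 and 48. Bcl11b was higher in the Cd4 cells of both libraries, with a log2 ratio of 0.60 (0.38 to 0.82) in WT and 1.36 (0.74 to 1.96) in cKO. Lef1 had 0.19 (-0.033 to 0.42) in WT and 1.44 (0.82 to 2.04) in cKO, where the level in Cd8 cells was 339 CPM against 902 in WT. Ikzf2 had -1.53 (-2.26 to -0.86) in WT, and in cKO 4 and 22 UMIs gave an interval that includes 0. Runx3 had -2.03 (-2.82 to -1.33) in WT and -0.79 (-3.16 to 0.93) in cKO, the latter from 3 and 24 UMIs. Zbtb7b had 1.83 (0.63 to 3.08) in WT, and 4 and 0 UMIs in cKO. Here too a cell with UMIs of 1 coreceptor can also express the other, so the classes need not be lineages.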
